A study of Homo sapiens with 12 samples.

Results

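The genes described here are 208 long non-coding RNA genes of the LINC series in human K562 cells, of 1742 such genes among the 28278 genes of the count table. They were chosen by 2 criteria: a symbol made of LINC and a number, and a mean level of at least 1 CPM over the 12 libraries (CPM, a gene's counts per 1000000 counts of its library). Their mean levels are therefore part of the choice and are given as description only. LINC01234 was also named in the choice, as the gene closest to a genotype by butyrate interaction in these data, so its values are given as description. It is included in the counts of members called, where its call restates the choice. At the threshold, the last genes inside were LINC01833 at 1.038 CPM and LINC00523 at 1.011 CPM, and the first genes outside were LINC01703 at 0.9997 CPM and LINC00672 at 0.9941 CPM. Of the LINC genes left out, 859 had 0 counts in all 12 libraries.

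K562 is an established erythroleukaemia line that makes embryonic and fetal globins and can be pushed further along the erythroid path by sodium butyrate, an inhibitor of histone deacetylases. The study compared unedited cells (WT) with cells in which HRG1 had been knocked out (HRG1-KO, here KO), each without treatment or with 0.75 mM sodium butyrate, in 4 groups of 3 libraries. HRG1 is the heme transporter encoded by SLC48A1, which moves heme out of lysosomal compartments. Butyrate was added 24 h after plating and again 48 h later, cells were collected 6 h after the second addition, which the design calls day 8 of differentiation. All groups were grown in RPMI with 10% heat-inactivated serum. The labels put no number on the KO clones and do not say whether the libraries of a group came from separate cultures, so that p-values measure only the spread between these libraries, and clone and genotype cannot be told apart.

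A LINC symbol is a catalogue name. It is given to a long RNA gene that lies between protein-coding genes, has no convincing open reading frame and has not been named for a function, and the number carries no biological meaning. Such RNAs are mostly capped, spliced and polyadenylated like messenger RNAs, are usually less abundant and more restricted to particular cell types than messenger RNAs, and in a minority of studied cases act on a neighbouring gene, as guides or scaffolds of chromatin proteins, or as sources of small proteins. In bulk samples, fewer cells that transcribe a gene and less RNA per cell cannot be told apart.

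The start regions of 7 members show what kinds of promoter are found among the genes on which the results below turn. Shown are LINC01234, the other members with an entry whose level passed the test under butyrate and that matched a naming rule (LINC01215, LINC01356, LINC02022, LINC00200 and LINC00877), and LINC00674, the most abundant member that was read in KO alone. Each run holds 300 bases, 250 before and 50 after the annotated start, 5′ to 3′ on the gene's strand, from RefSeq on GRCh38.p14. Capitals mark CCAAT (or ATTGG on the other strand) and GGGCGG (or CCGCCC), and the other letters searched for were absent from these 7.
LINC01234: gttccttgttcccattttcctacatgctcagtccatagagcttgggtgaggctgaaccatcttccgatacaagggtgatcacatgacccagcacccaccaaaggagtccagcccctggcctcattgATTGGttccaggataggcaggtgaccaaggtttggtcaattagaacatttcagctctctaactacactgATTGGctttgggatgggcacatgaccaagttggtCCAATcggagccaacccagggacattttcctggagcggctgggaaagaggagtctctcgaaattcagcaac
LINC01215: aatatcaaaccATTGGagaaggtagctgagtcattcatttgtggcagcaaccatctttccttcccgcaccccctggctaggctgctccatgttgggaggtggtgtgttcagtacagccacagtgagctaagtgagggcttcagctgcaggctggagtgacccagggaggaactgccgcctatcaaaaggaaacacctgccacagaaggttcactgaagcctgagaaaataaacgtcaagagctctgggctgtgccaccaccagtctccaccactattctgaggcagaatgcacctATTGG
LINC01356: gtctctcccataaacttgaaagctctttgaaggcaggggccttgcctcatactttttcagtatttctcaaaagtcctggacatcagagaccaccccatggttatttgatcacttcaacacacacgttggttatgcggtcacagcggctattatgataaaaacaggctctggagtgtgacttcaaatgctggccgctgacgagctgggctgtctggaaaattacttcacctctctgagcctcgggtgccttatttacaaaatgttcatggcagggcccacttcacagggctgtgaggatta
LINC02022: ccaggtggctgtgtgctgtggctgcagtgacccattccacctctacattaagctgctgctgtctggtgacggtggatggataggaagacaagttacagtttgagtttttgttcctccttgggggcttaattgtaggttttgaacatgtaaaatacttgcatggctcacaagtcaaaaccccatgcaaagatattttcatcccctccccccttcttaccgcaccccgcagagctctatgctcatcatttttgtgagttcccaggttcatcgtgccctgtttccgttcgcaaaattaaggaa
LINC00200: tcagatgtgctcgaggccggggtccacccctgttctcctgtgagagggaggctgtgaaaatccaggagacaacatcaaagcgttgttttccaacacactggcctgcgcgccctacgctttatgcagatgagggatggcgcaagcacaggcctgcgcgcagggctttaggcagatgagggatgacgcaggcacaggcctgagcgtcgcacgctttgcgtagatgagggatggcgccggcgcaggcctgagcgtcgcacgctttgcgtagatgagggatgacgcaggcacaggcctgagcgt
LINC00877: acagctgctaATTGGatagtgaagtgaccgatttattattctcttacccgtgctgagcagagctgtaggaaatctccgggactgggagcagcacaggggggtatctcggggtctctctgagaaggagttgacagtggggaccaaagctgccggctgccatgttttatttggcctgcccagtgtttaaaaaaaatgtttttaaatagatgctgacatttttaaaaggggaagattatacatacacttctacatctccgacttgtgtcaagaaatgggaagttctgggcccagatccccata
LINC00674: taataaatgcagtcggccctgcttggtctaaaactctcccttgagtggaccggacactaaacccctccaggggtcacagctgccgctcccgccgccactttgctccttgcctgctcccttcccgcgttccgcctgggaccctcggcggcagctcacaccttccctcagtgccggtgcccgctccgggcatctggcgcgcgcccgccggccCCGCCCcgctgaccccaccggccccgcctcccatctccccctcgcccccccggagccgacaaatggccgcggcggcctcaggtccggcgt

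The LINC01234 start region, chr12:113773634-113773933 on the minus strand, held 3 copies of the CCAAT letters, 4 CpG and 51.0% GC. A promoter with 3 or more copies was found for 935 of 27305 genes in the table (3.42%) and for 6 of the 137 members with an entry. LINC01215 held 2 copies in chr3:108125571-108125870, LINC00877 held 1, and LINC01356 (chr1:112850594-112850893) and LINC02022 (chr3:12885162-12885461) held none of the motifs. LINC00200, at chr10:1159518-1159817, also held none, but contained a stretch of 39 bases repeated within the window, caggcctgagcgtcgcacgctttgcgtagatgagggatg. LINC00674, at chr17:68101305-68101604, was the richest in G and C of the 7, with 71.0% GC, 30 CpG and 1 GC box.

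Over the 137 members with an entry, the median GC content was 58.3% and the median number of CpG was 13, against 58.3% and 14 for all promoters in the table, 64.7% and 25 for the promoters of all genes tested, and 47.7% and 4 for all LINC promoters. AGATAA, the letters bound by GATA factors, occurred on either strand in 16.8% of the members, 10.5% of all promoters, 5.65% of the promoters of genes tested and 16.7% of all LINC promoters. GGGCGG, the GC box, occurred in 43.1%, 44.6%, 67.4% and 18.3%, in the same order. CCAAT occurred in 38.0% of the members and 35.7% of all promoters, TATAAA in 12.4% and 12%, CACGTG in 7.3% and 7.43%, CCACACCC in 4.38% and 3.22%, TGACGTCA in 1.46% and 1.98%, and TGATGNAA in 1.46% and 3.67%. The share of members with a GC box lay close to that of all promoters, above that of the whole LINC class and below that of the genes tested. None of these differences was tested. A match of letters is a description of the window and not a binding site.

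The word intergenic was checked against the annotation. Of the 208 members, 191 matched a current RefSeq symbol and 17 an older synonym, and 207 were listed as lncRNA. The exception, LINC00634, is now SMIM45, a protein-coding gene. In the RefSeq gene models 186 members overlapped no protein-coding gene and 22 overlapped one, 15 on the opposite strand and 5 on the same strand where both strands were known. LINC00634 is in both counts: it overlaps CENPM on the opposite strand, and as a coding gene it was also matched to itself on the same strand. Within 2000 bases of a coding gene's start on the opposite strand started 25 members, 10 of them among the 22 that overlap and 15 others. In GENCODE 29, which listed 188 members, 149 were lincRNA, 14 antisense and 12 processed transcripts, and 11 were classed as transcribed pseudogenes of 3 types. The label therefore held for most members, with these exceptions. Strand use in counting is not given in the sources used here, so reads of an overlapping pair on opposite strands cannot be told apart.

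Transcript sequence shared with other genes also limits some members. Of the 188 with GENCODE transcripts, 33 shared at least 20% of their 50-base stretches with transcripts of another gene, and 63 shared none. The highest shares among members named here were 92.2% for LINC01123, 86.5% for LINC01001, 85.4% for LINC00261, 69.9% for LINC01002 and 64.9% for LINC01347. LINC01001 and LINC01002 also shared 126 bases without a mismatch within their 300-base start regions, although they lie on chromosomes 11 and 19. The counts of these members are uncertain, because the authors' counting could have split or discarded shared reads.

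The libraries held 19963594 to 30348538 counts, at which 3 counts, used as the detection limit, correspond to 0.0953 to 0.162 CPM after TMM scaling (the trimmed mean of M values). That limit covers counting error only. SLC48A1 lay between 58.9 and 83.8 CPM in the 6 WT libraries and between 2.94 and 10.1 CPM in the 6 KO libraries (exact permutation p 0.1 in untreated and in treated cells, 2-sided, the smallest that 3 against 3 allows), so the libraries went with their genotype labels. All 12 K562 markers used here (among them GATA1, KLF1, TAL1 and the fetal globins) exceeded 3 counts in every library. Their summed level in WT was 8420 to 17600 CPM without and 29000 to 54200 with butyrate, and in KO 4010 to 6070 without and 5370 to 7330 with it. Of the 18 markers of other cell types, MS4A1, KRT5 and CDH5 were at 0 in every library. The 3 fibroblast markers summed in WT to 1.75 to 5.12 CPM without and 36.8 to 116 with butyrate, and in KO to 2.01 to 4.94 without and 70.3 to 170 with it, nearly all of it COL1A1, since COL1A2 and DCN did not exceed 0.864 and 0.616 CPM in any library. The 3 monocyte markers, mostly LYZ, summed in WT to 12.2 to 17.3 CPM without and 15.7 to 26.7 with butyrate, and in KO to 2.6 to 9.09 without and 24 to 32 with it. The endothelial sum, mostly PECAM1, lay at 4.57 to 12 CPM over the WT groups and at 0 to 3.76 over the KO groups. The summed T cell markers lay at 4.75 to 16.1 CPM over the WT groups and at 1.05 to 5.07 over the KO groups. The part of these shifts in the results below was not tested. On the second principal component of all genes tested (22.6% of the variance), the untreated libraries had scores of -48.2 to -10.7, and replicates 2 and 3 of both treated groups had scores of 49.8 to 59.2. The libraries numbered 1 of the treated groups had scores of -30.9 (WT), among those of untreated cells, and -6.28 (KO). Results are therefore also given without the 4 libraries numbered 1 where that changes them.

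The members were a small part of the transcriptome. Together they took 0.159% to 0.26% of a library's counts, and 95.0% of all counts of LINC genes. A mean over 100 CPM was found for 3 members, and 49 lay between 10 and 100 and 156 between 1 and 10. Their median was 3.28 CPM, against 20.3 CPM for all 15805 genes tested. All 208 passed the filter on low counts. At a mean of 1 CPM or more in each of the 4 groups were 118 members. The other 90 (43.3% of the members) fell under 1 CPM in some group, which holds for 1868 of 13611 genes of mean CPM 1 or more (13.7%). A member that reaches the threshold through only some groups had to differ between groups, so these 90 are counted apart below.

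LINC02067 on chromosome 3 was the most abundant member by counts, with a mean of 150.0 CPM. Scaled by TMM, which is used for all values by library from here on, it lay in WT at 158, 153 and 136 CPM without and 196, 114 and 143 with butyrate, and in KO at 189, 141 and 199 without and 141, 89.7 and 158 with it, with overlap between all groups. LINC01000 on chromosome 7 followed at a mean of 114.0 CPM, then LINC01001 at 106.2, LINC01002 at 88.16 and LINC00221 at 55.96. LINC00205, which starts head to head with POFUT2, had a mean of 44.74 CPM. LINC01578 is the RNA now named CHASERR, known for restraining its neighbour CHD2 in cis, and had a mean of 44.55 CPM. LINC00958, studied as a growth-promoting RNA in carcinoma lines, had 43.70 CPM, LINC01347 had 36.11 CPM and LINC01006 (now RNF32-DT) had 31.45 CPM. Levels of different genes can be compared only per length. Per kilobase of GENCODE exon, LINC02067 stood at 52.7 CPM, LINC01001 at 27.8, LINC00674 at 20.5, LINC00221 at 18.1, LINC00958 at 15.2, LINC01578 at 8.26 and LINC01234 at 5.74. These are examples and not a ranking: LINC00508, with a mean of 14.15 CPM over 194 exon bases, stood above LINC02067. LINC01000 had no exon length, and the mean of LINC00674 includes WT libraries at 0 counts. Neither CHASERR nor CHD2 passed the test in any of the 4 comparisons of 2 groups, and CHD2 had a mean of 114 CPM in untreated WT and 119 in untreated KO.

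LINC01234 is a multi-exon RNA gene on the minus strand of chromosome 12, chr12:113744577-113773683, with RBM19 as the nearest coding gene at a distance of 43057 bases. It has been studied mainly in carcinoma lines, where it is described as growth-promoting. Untreated WT libraries held 25.7, 32.6 and 24.6 CPM of it. Treated WT libraries held 42.2, 46.9 and 49.2 CPM. Untreated KO libraries held 1.66, 1.95 and 1.30 CPM, from 31, 41 and 39 counts. Treated KO libraries held 21.8, 38.9 and 17.8 CPM. Untreated KO was thus the group that stood apart, every one of its libraries lying below every library of the other 3 groups, while treated KO overlapped untreated WT.

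On the log2 scale LINC01234 was higher with butyrate by 0.74 in WT and by 4.0 in KO, and it was lower in KO than in WT by 4.08 without butyrate and by 0.82 with it. The difference between the butyrate changes was 3.26. These differences share groups, are the ones for which the gene was chosen, and carry no test here. RBM19, which takes part in ribosome biogenesis, did not follow it: its mean level in WT was 49.8 CPM without and 41.1 with butyrate, and in KO 78.8 without and 74.3 with it. Without the libraries numbered 1, the butyrate difference of LINC01234 in KO was 4.12, and leaving out single libraries placed it between 3.6 and 4.23. In the plot by library, LINC01234 stands beside the other members called under butyrate.

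**Figure D1:**
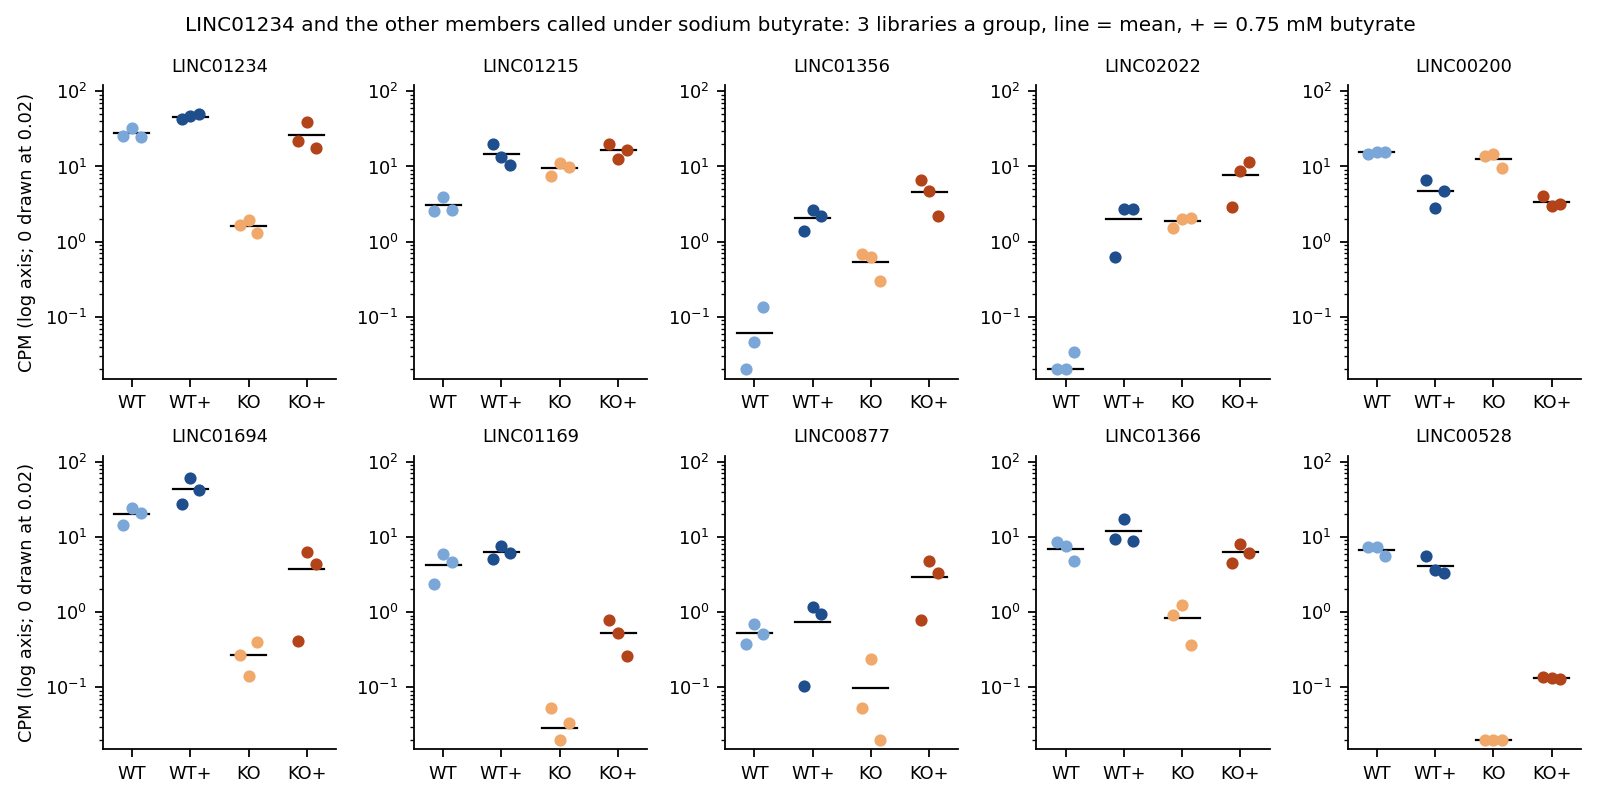
TMM-scaled CPM (log axis, values of 0 drawn at 0.02) of LINC01234 and of the 9 other members called under butyrate in WT or KO, by group, with + for 0.75 mM sodium butyrate. Points are the 3 libraries of a group and lines their means. LINC01234 is low in untreated KO alone, at 1.30 to 1.95 CPM, and LINC00200 is lower with butyrate in both genotypes.

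In WT cells, butyrate changed 4 of the 208 members at an adjusted p under 0.05 (edgeR quasi-likelihood test, Benjamini-Hochberg over all genes tested), 3 higher and 1 lower. That is 1.92% of the members, against 2.35% of all genes tested. The treated and untreated libraries did not overlap for 47 members, or 22.6%, against 21.7% of all genes. The share changed was thus close to the background. Of the 118 members at 1 CPM in all groups 2 changed (1.69%, against 2.27% of all such genes), and of the other 90 another 2 (2.22%, against 5.09%). The median log2 difference was 0.052 over the members and 0.025 over all genes.

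LINC01215 on chromosome 3 was the member whose rise in WT passed in every fit that left out a library. Untreated WT libraries held 2.55, 3.90 and 2.66 CPM and treated ones 19.9, 13.4 and 10.6, without overlap, a log2 change of 2.27 (SE 0.34, adjusted p 0.00721, higher in 3 of 3). Of these 6 fits, the one that left out replicate 1 of untreated WT gave the highest adjusted p, 0.0462. In KO it lay at 7.39, 11 and 9.90 CPM without and 19.8, 12.4 and 16.8 CPM with butyrate, a log2 difference of 0.79 that did not pass. The nearest coding gene IFT57, a component of cilia transport, showed a log2 difference of 0.18 in WT.

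LINC02022 was close to absent in untreated WT, with 0, 0 and 1 counts, and was read at 0.622, 2.73 and 2.7 CPM in treated WT, at least 15.0-fold higher (edgeR adjusted p 0.00721). Its adjusted p was 0.0523 when replicate 2 of untreated WT was left out. In KO it was present without butyrate at 1.5, 2.00 and 2.07 CPM and lay at 2.89, 8.59 and 11.4 CPM with it, a log2 difference of 2.04 that did not pass. LINC01356 on chromosome 1 was also lowest in untreated WT and highest on average in treated KO: WT libraries had 0, 1 and 4 counts without and 1.40, 2.65 and 2.19 CPM with butyrate, and KO libraries 0.696, 0.618 and 0.301 CPM without and 6.71, 4.79 and 2.19 CPM with it. Its log2 change with butyrate was 4.85 in WT (SE 0.82, edgeR adjusted p 0.013) and 3.09 in KO (SE 0.69, adjusted p 0.0332). LINC01356 reached 1 CPM on average in the treated groups alone, so that a difference with butyrate was part of its choice. It passed in 3 of the 6 WT fits that left out a library (0.0757 without replicate 2 of untreated WT) and in 1 of the 6 KO fits (0.141 without replicate 2 of untreated KO). Some of its sequence, 23.2%, is shared with other genes.

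LINC00200, next to the RNA-editing family gene ADARB2, was the member that fell with butyrate in both genotypes. It lay at 14.8, 15.8 and 15.7 CPM in untreated WT and at 6.64, 2.77 and 4.77 CPM in treated WT, a log2 change of -1.71 (SE 0.34, adjusted p 0.0257 in edgeR). In KO it lay at 13.6, 14.8 and 9.53 CPM without and 4.0, 2.97 and 3.19 CPM with butyrate, a log2 change of -1.90 (SE 0.34, adjusted p 0.0138). Treated libraries were lower than untreated ones in every case, with 3 of 3 in each genotype. Without the libraries numbered 1 the log2 changes were -2.07 and -1.99 (adjusted p 0.00709 and 0.0071). It passed in 1 of 6 WT fits and 3 of 6 KO fits that left out a library, the highest adjusted p being 0.101 without replicate 2 of treated WT and 0.0797 without replicate 2 of untreated KO. ADARB2 itself was low, at a mean of 0.450 CPM in untreated WT and 0.714 in treated WT.

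In KO cells, butyrate changed 8 members, 7 higher and 1 lower, which is 3.85% against 3.40% of all genes tested. LINC01234, chosen for its response, is 1 of the 7. The groups did not overlap for 49 members, or 23.6%, against 24.4% of all genes, so that the share was again close to the background. Of the 118 members at 1 CPM in all groups 2 changed, LINC01234 and LINC00200. The other 6 came from the 90 that fell under 1 CPM in some group (6.67%, against 10.7% of all such genes). The median log2 difference was 0.017 over the members and 0.0 over all genes.

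LINC01694 on chromosome 21 lay at 0.268, 0.143 and 0.401 CPM in untreated KO and 0.413, 6.31 and 4.38 CPM in treated KO, a log2 rise of 3.72 (SE 0.78, adjusted p 0.0272 in edgeR). The treated library numbered 1 thus barely exceeded those without butyrate, and without the libraries numbered 1 the rise was 4.17 (adjusted p 0.000736). In WT it lay far higher, at 14.3, 24.6 and 20.8 CPM without and 27.8, 59.9 and 41.9 CPM with butyrate. LINC01169 held 1, 0 and 1 counts in untreated KO and 0.781, 0.529 and 0.258 CPM in treated KO, at least 3.88-fold higher (edgeR adjusted p 0.0225), and 2.33, 5.89 and 4.64 CPM in untreated WT.

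LINC01366, near KCNIP1 on chromosome 5, rose by 2.91 (SE 0.50, edgeR adjusted p 0.0108), from 0.910, 1.24 and 0.368 CPM to 4.55, 8.06 and 6.09 CPM, and was named after its values were seen because it completes the 8. In untreated WT it lay at 8.56, 7.56 and 4.84 CPM. LINC00877 rose from 0.0535, 0.238 and 0 CPM in untreated KO to 0.781, 4.76 and 3.29 CPM in treated KO (log2 change 4.92, SE 1.18, edgeR adjusted p 0.0406), while WT libraries lay between 0.104 and 1.15 CPM in both conditions. Only its mean in treated KO reached 1 CPM, so that this rise was part of its choice and the p is given as description only. LINC00528, beside the apoptosis gene BID, had 0 counts in all untreated KO libraries and 3, 4 and 4 counts in the treated ones. That change passed the test (edgeR adjusted p 0.0258), but both groups were at or near the detection limit and no fold is given. In WT it lay at 7.26, 7.38 and 5.51 CPM without and 5.50, 3.59 and 3.27 CPM with butyrate.

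Most of these KO calls were lost in most fits that left out a single library. The calls over all genes, 537 in the full fit, lay between 48 and 833 in the same fits. Among the fits that left out 1 of the 6 libraries, LINC01694, LINC00528 and LINC00877 passed in 1 each, LINC01169 in 2 and LINC01366 in 4. The highest adjusted p was 0.141, 0.111, 0.162, 0.109 and 0.0532, in the same order, reached without replicate 2 of untreated KO for LINC01694, LINC00528 and LINC01169, without replicate 2 of treated KO for LINC00877 and without replicate 1 of untreated KO for LINC01366. All 5 passed without the 4 libraries numbered 1.

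The numbers of members changed by butyrate moved with the treatment of replicates. With the replicate block (replicate number as a term of the model) 10 members changed in WT and 22 in KO, or 4.81% and 10.6%, against 8.61% and 11.7% of all genes in the same fit. Without the 4 libraries numbered 1 the counts were 19 and 20, or 9.13% and 9.62%, against 11.4% and 13.1% of all genes. The counts over all genes thus moved in the same way, and the members' share exceeded that of all genes in neither fit. Leaving out single libraries gave 12 members in WT without replicate 1 of treated WT (5.77%, against 7.63% of all genes), 2 without its replicate 2, and 2 and 1 without replicates 1 and 2 of untreated WT (at most 0.962%, against at most 0.398% of all genes). In KO it gave 1 and 5 without replicates 2 and 3 of treated KO, and 1, 2 and 3 without replicates 1, 2 and 3 of untreated KO, when 0.292% to 1.75% of all genes passed. The direction of the majority was upward in each of these fits.

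**Figure D2:**
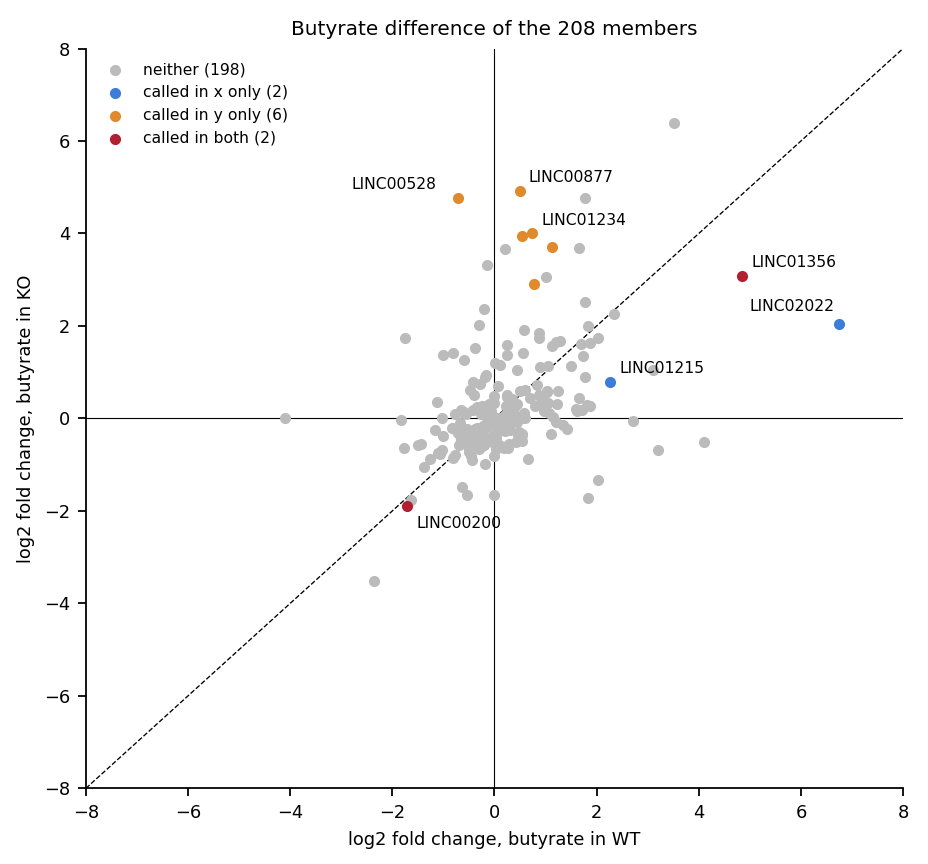
Log2 fold change with butyrate in WT (x axis) and in KO (y axis) for the 208 members, with the diagonal dashed and colours for the calls at an edgeR adjusted p under 0.05. LINC01356 and LINC00200 were called in both, 2 members in WT alone and 6 in KO alone, and 198 in neither.

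The 2 butyrate comparisons use separate libraries. LINC01356 rose and LINC00200 fell in both, which is 2 of the 4 members changed in WT and 2 of the 8 changed in KO, and none changed in opposite directions. LINC01356 reached 1 CPM on average in the treated groups alone, so that its rise in both was part of its choice. The same share over all genes is not given, and the overlap is description only. Whether a response differed between genotypes was tested as an interaction, the butyrate change in KO minus that in WT. In edgeR 0 of 208 members and 0 of 15805 genes passed. At an unadjusted p under 0.05 were 18 of 208 members and 658 of 15805 genes, a larger share among the members that was not tested. Of the 18, 11 came from the 90 members under 1 CPM in some group. The 18 include LINC01234, which was chosen for this interaction. DESeq2 called 76 genes and the replicate block 3, and the 1 member among them was in both cases LINC01234. Because that gene was chosen for this interaction, its calls restate the choice and no other member was called in either. Next in order of p among the members came LINC00528, with an interaction of 5.47 on the log2 scale (SE 1.01, adjusted p 0.185), and LINC02022, with -4.71 (SE 1.22, adjusted p 0.473). Each has an untreated group at 3 counts or fewer, so these sizes depend on the prior count. Responses that passed in a single genotype are therefore not shown to differ between genotypes.

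Differences between KO and WT were more frequent among the members than those with butyrate. In untreated cells 71 members differed, 34 higher and 37 lower in KO, including LINC01234. That is 34.1% of the members, against 22.6% of all genes tested. The groups did not overlap for 104 of the 208 members, against 42.3% of all genes. In treated cells 61 members differed, 29 higher and 32 lower in KO, or 29.3% against 19%, and 95 did not overlap (45.7% against 33.9%). These comparisons use separate libraries: 23 members were higher in KO in both, 27 were lower in both and 0 changed sides. The shared 50 were 70.4% of those called in untreated cells and 82.0% of those called in treated cells. Some of them reached the threshold through a single genotype, so that agreement between the comparisons was in part built into the choice. The same share over all genes is not given, and the overlap is description only.

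The shares were also taken apart by level. By mean level, 23 of the 52 members at 10 CPM or more differed in untreated cells (44.2%, against 23.1% of all genes at that level) and 20 in treated cells (38.5% against 19.7%). Of the 156 members between 1 and 10 CPM, 48 differed in untreated cells (30.8% against 25.5%) and 41 in treated cells (26.3% against 21%). A second split asks whether a gene reached 1 CPM in every group, which a difference between groups itself helps to decide. Among the 118 members at 1 CPM in all 4 groups, 23 differed in untreated cells (19.5%), against 19.8% of the 11743 genes that meet the same condition. In treated cells 23 differed as well (19.5%), against 16.6%. Among the other 90, 48 differed in untreated cells (53.3%), against 48.9% of the 1868 genes of that kind, and 38 in treated cells (42.2%), against 41.9%. Within each kind of this second split the members' share was within 5 percentage points of that of all genes, whereas by mean level the members' share was higher in both bands. Of the members 43.3% were of the second kind, against 13.7% of genes of mean CPM 1 or more. These counts carry no test, because the threshold took part in the choice.

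Called differences were larger in the median than those of all genes. Beyond 3 on the log2 scale, an 8-fold difference, lay 40 of the 71 in untreated cells, 18 higher and 22 lower in KO (56.3%, against 34.1% of all genes called), and 30 of the 61 in treated cells (49.2% against 31.9%). The median size of a called difference was 3.82 for the members and 1.75 for all genes in untreated cells, and 2.98 and 1.57 in treated cells. Within the kinds the medians lay nearer to each other. Among genes at 1 CPM in all 4 groups the medians in untreated cells were 1.18 for the members and 1.17 for all genes, and among those under 1 CPM in some group 5.75 and 5.62. In treated cells they were 1.38 and 1.11, and 4.62 and 4.9. At 1 CPM in all 4 groups, 4 of 23 called members lay beyond 3 in untreated cells (17.4%, against 6.57% of called genes). In treated cells 1 of 23 did (4.35% against 3.9%). Among those under 1 CPM in some group the shares were 75% against 82.7%, and 76.3% against 79.7%. Of the 71 called members 48 were of the second kind, as were 914 of the 3574 genes called. For 22 members in untreated and 14 in treated cells, all libraries of the lower group held 3 counts or fewer, so that the fitted values of these depend on the prior count and only lower bounds are given for their folds.

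**Figure D3:**
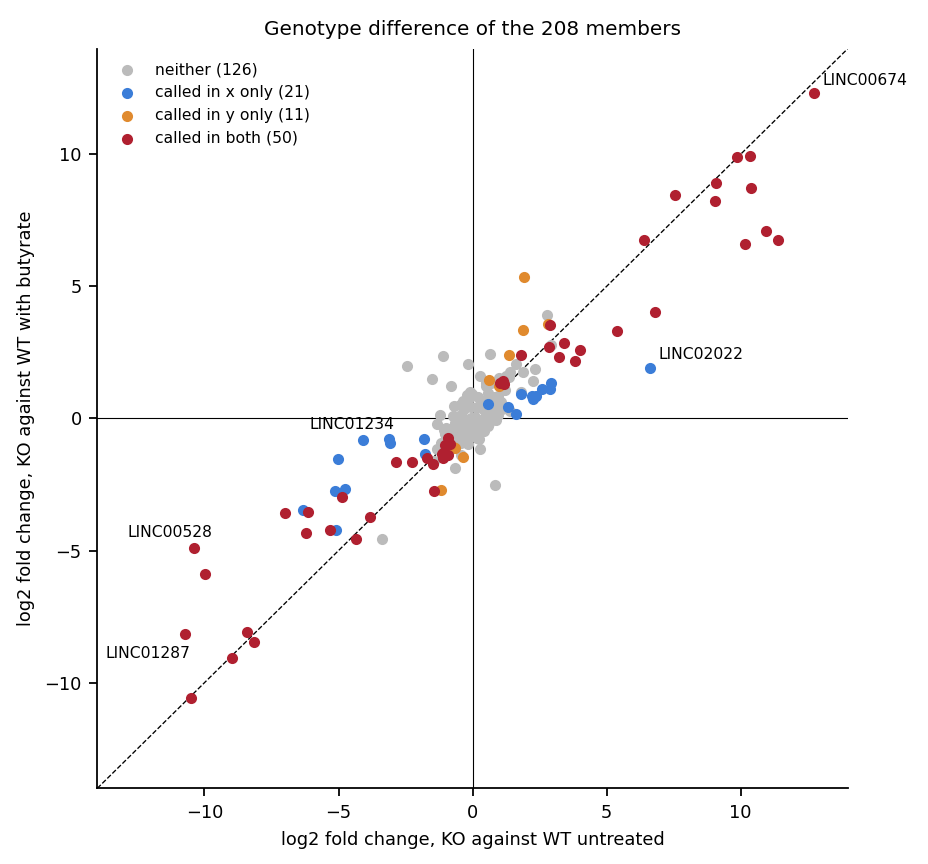
Log2 fold change of KO against WT without butyrate (x axis) and with butyrate (y axis) for the 208 members, with the diagonal dashed and colours for the calls at an edgeR adjusted p under 0.05. The 50 members called in both keep their direction, from LINC00674 at the upper right to LINC01203 at the lower left; values beyond 8 in size rest on groups at or near 0 counts.

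At the far end were members read in one genotype alone. In 8 members (LINC00674, LINC02315, LINC02055, LINC01806, LINC02035, LINC02513, LINC01833 and LINC02393) every WT library held 3 counts or fewer, and in 4 (LINC01203, LINC01028, LINC01419 and LINC00261) every KO library did. Of these 12, 9 had 0 counts in all 6 libraries of that genotype. They make up 5.77% of the members, against 1.48% of the 13611 genes of mean CPM 1 or more (103 at the limit in WT and 99 in KO). They lay on 9 chromosomes. Each reached the threshold through 1 genotype alone, so that a difference between genotypes was part of its choice.

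LINC00674 on chromosome 17 was the most abundant of them. It had 0 counts in all 6 WT libraries, and lay at 30.8, 39.8 and 32.0 CPM in untreated KO and at 23.4, 23.2 and 30.0 CPM in treated KO, from 4509 counts in all. It was at least 255-fold higher in KO without butyrate (edgeR adjusted p 2.04e-06) and at least 202-fold higher with it. KPNA2, the importin gene nearest to it at 54701 bases, had a log2 difference of 0.58 that did not pass. LINC02315 was at least 74.1-fold and LINC01806 at least 50.2-fold higher in untreated KO, and LINC02055 at least 48.5-fold. LINC01123, just outside the 12 with up to 0.213 CPM in treated WT, was at least 100-fold higher in untreated KO, but 92.2% of its sequence is shared with other genes, chiefly LINC01106. Like the 12, LINC01123 reached the threshold through a single genotype, so that a difference was part of its choice. LINC02393 was at least 20.2-fold higher in untreated KO, with a wide spread in treated KO of 5.24, 1.26 and 0.838 CPM.

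Among those read in WT alone, LINC01203 on the X chromosome lay at 7.20, 9.65 and 5.35 CPM in untreated WT and at 3.21, 10.0 and 9.79 CPM in treated WT, against 0 counts in all 6 KO libraries, at least 55.0-fold lower without butyrate. LINC01287 on chromosome 7, just outside the 12, lay at 25.0, 45.6 and 27.1 CPM in untreated WT and at 42.8, 25.1 and 16.4 CPM in treated WT. In untreated KO it was at least 242-fold lower (edgeR adjusted p 1.73e-05), while treated KO held it in replicate 2 alone, at 0.264 CPM. LINC00528 was at least 49.9-fold and LINC01169 at least 31.9-fold lower in untreated KO. LINC00534 lay between 4.99 and 32.0 CPM in WT and between 0 and 0.134 CPM in KO. Like the 12, LINC01287, LINC00528, LINC01169 and LINC00534 reached the threshold through a single genotype. A difference between genotypes was thus part of their choice, and their values are description only. LINC01419 and LINC01028 were at least 10.8-fold and 18.8-fold lower in untreated KO.

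LINC00261, the neighbour of the endodermal regulator FOXA2 and known from endoderm and liver, had 0 counts in KO. In untreated WT its libraries were uneven, at 2.11, 11.5 and 1.82 CPM, and treated WT lay at 0.156, 0.128 and 0.572 CPM. Only its mean in untreated WT reached 1 CPM, so that a difference from KO was part of its choice and the p-values are description only. Its difference between genotypes passed in untreated cells (edgeR adjusted p 0.00271, at least 38.1-fold lower in KO) and in treated cells (adjusted p 0.0387, at least 2.56-fold lower), where it passed in 1 of the 6 fits that left out a library, the highest adjusted p being 0.108 without replicate 3 of treated WT, and missed at 0.056 without the libraries numbered 1. As 85.4% of its stretches occur in another annotated transcript, its counts are uncertain.

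**Figure D4:**
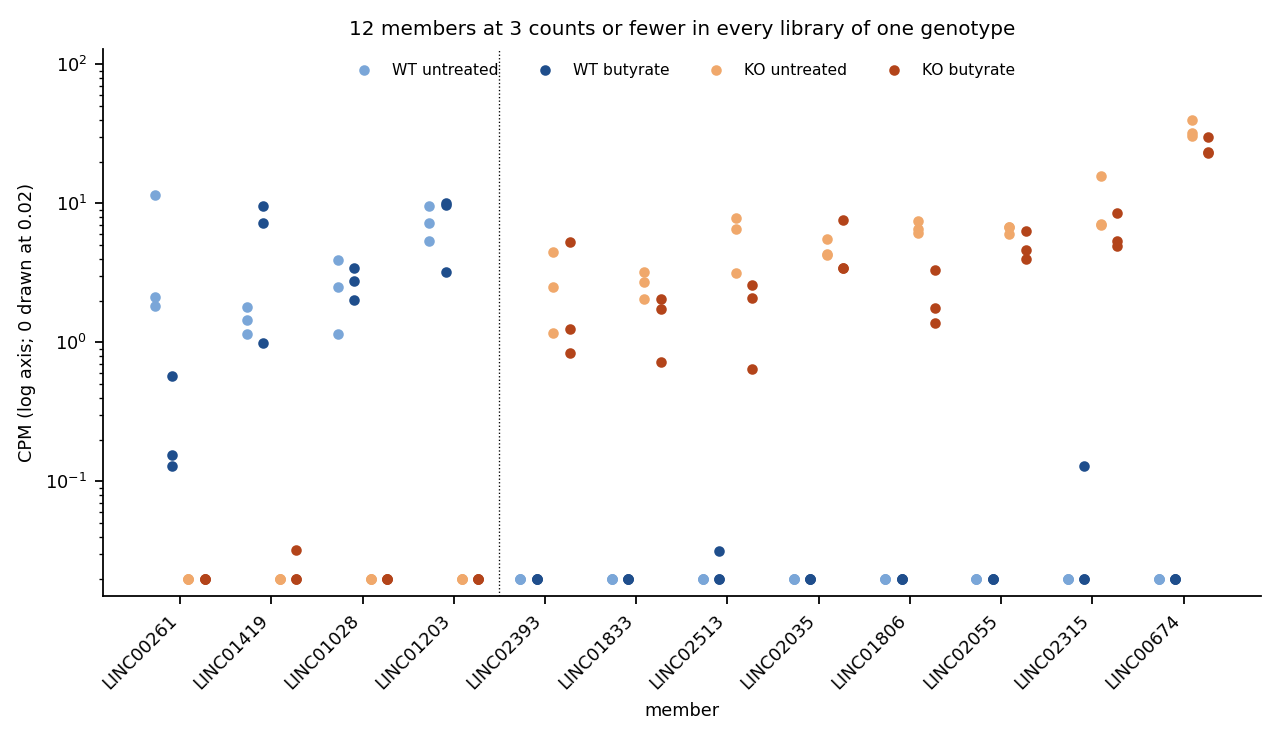
TMM-scaled CPM (log axis, values of 0 drawn at 0.02) of the 12 members at 3 counts or fewer in every library of one genotype, with the 4 low in KO left of the dotted line and the 8 low in WT right of it. Points are the 3 libraries of each group. LINC00674 reaches 39.8 CPM in KO with 0 counts in every WT library.

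Members already seen under butyrate also differed between untreated genotypes, in comparisons that share the untreated libraries, so their values are only set side by side. LINC01215 exceeded untreated WT in untreated KO by a log2 difference of 1.63 (SE 0.33, adjusted p 0.0036 in edgeR) and LINC02022 at least 13.8-fold higher. LINC01356 was 2.89 higher (adjusted p 0.0223), which missed at 0.0831 without the libraries numbered 1. LINC01694 was 6.13 lower and LINC01366 was 3.07 lower. In treated cells LINC01694 was still 3.53 lower (adjusted p 0.00316) and LINC01169 3.59 lower, whereas LINC01215, LINC02022, LINC01356 and LINC01366 did not pass.

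The most abundant members differed little by comparison. LINC01000 lay at 173, 176 and 134 CPM in untreated WT and at 81.1, 85.2 and 69.2 CPM in untreated KO, and its log2 difference, KO minus WT, was -1.03 without butyrate (SE 0.24, adjusted p 0.0072 in edgeR) and -1.0 with it. LINC01001 was lower in treated KO by 1.07 (adjusted p 0.0173), and LINC01002 was lower by 0.83 in untreated and 0.96 in treated cells. These 2 share sequence and their calls were less stable: LINC01002 passed in 1 of 6 untreated and 3 of 6 treated fits that left out a library, with 0.111 as the highest adjusted p (replicate 1 of untreated WT left out), and LINC01001 in 4 of 6 (0.0887 without replicate 2 of treated WT). With libraries scaled by size alone, LINC01002 missed in both conditions (0.0631 and 0.0542). LINC00221 was 0.59 higher in untreated KO (adjusted p 0.0444), and passed in 1 of 6 fits that left out a library, up to 0.205 without replicate 3 of untreated WT. It also missed with libraries scaled by size alone (0.0785) and without the libraries numbered 1 (0.0609). LINC02067, LINC00205, LINC01578, LINC00958, LINC01347 and LINC01006 did not pass between genotypes in either condition.

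Whole chromosomes were shifted between the genotypes, which bears on members of moderate difference. The median log2 difference of KO against WT over all genes tested on chromosome 7 was -0.782 without and -0.861 with butyrate, over 730 genes. Of the 13 members on chromosome 7, 8 were lower in KO in both conditions and 0 were higher. Of these 8, LINC01287 was the exception in size, and the other 7 (LINC00174, LINC00997, LINC01000, LINC01003, LINC01004, LINC02476 and LINC02604) lay between -1.49 and -0.91 without butyrate, within 1 log2 unit of the chromosome's median. On chromosome 18, with a median of -0.52 in untreated cells, 3 of 8 members were lower and 1 was higher. On chromosome 13, with a median of 0.94, LINC00449, LINC01232 and LINC00355 were higher and LINC00346 and LINC00431 lower. On chromosomes 14 and 3 the medians were 0.629 and 0.453, with 3 of 11 members higher and 1 lower on the former and 4 of 13 higher and 0 lower on the latter. Copy number was not measured here, and its part in these differences was not tested. Of all 71 members called in untreated cells, 11 lay within 1 log2 unit of the median of their chromosome and 41 lay more than 3 units from it.

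**Figure D5:**
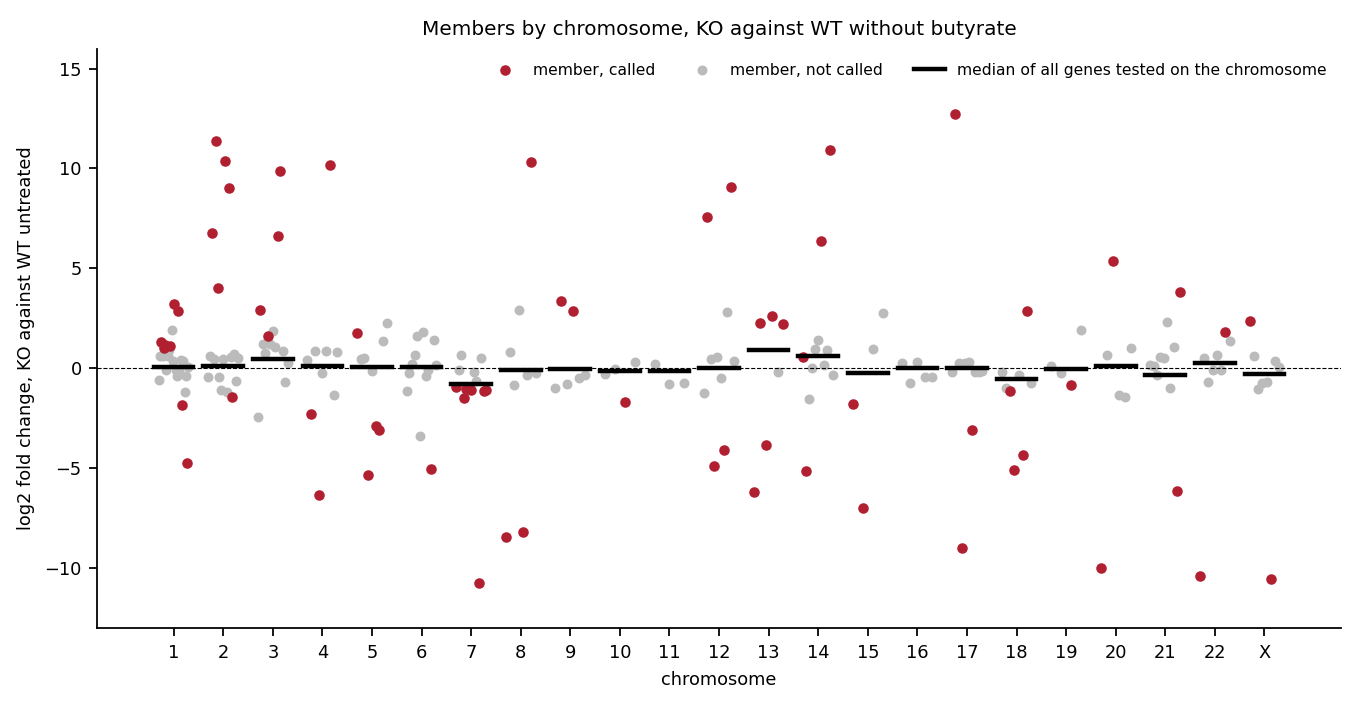
Log2 fold change of KO against WT without butyrate for each member, by chromosome, with members called at an edgeR adjusted p under 0.05 in red, others in grey, and the median of all genes tested on the chromosome as a black bar. The bar of chromosome 7 lies at -0.782 and those of chromosomes 13 and 14 at 0.94 and 0.629.

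The nearest coding gene had a tested value for 143 members. Across these pairs, the log2 differences of member and neighbour correlated with Pearson's r of 0.394 (Spearman's rho 0.415) for KO against WT without butyrate and 0.541 (0.42) with it, and with 0.092 (0.172) and 0.09 (0.144) for butyrate in WT and KO. Over the 23 head-to-head pairs r was 0.665, 0.661, 0.471 and 0.336, in the same order. These are descriptions across pairs that share libraries and, for the genotypes, shifts of whole chromosomes. Of 45 members with a tested neighbour that differed in untreated cells, 15 had a neighbour that differed in the same direction and 3 in the opposite one. Of all genes tested, 22.6% differed there in either direction. Of the 4 and 6 members with a tested neighbour that changed under butyrate in WT and KO, 0 had a neighbour that changed. Only 2.35% and 3.40% of all genes changed in these comparisons, so these few pairs cannot show a contrast with the genotypes.

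Several of the pairs between genotypes were all-or-none on both sides. LINC01833 lies 2503 bases from SIX3, a homeobox gene of forebrain and eye development. SIX3 had a mean of 0 CPM in both WT groups, 8.65 in untreated KO and 3.30 in treated KO (edgeR adjusted p 0.000101 and 0.000288), as LINC01833 lay at 0 counts in WT and at 2.73, 2.05 and 3.21 CPM in untreated KO. LINC02035 lies 5374 bases from SLC49A4, a lysosomal membrane transporter of the family of the FLVCR heme exporters. SLC49A4 had means of 0.0309 and 0.142 CPM in untreated and treated WT and 4.96 and 4.49 CPM in KO (edgeR adjusted p 0.00168 and 0.0071). LINC02035 itself had 0 counts in WT and lay between 3.40 and 7.54 CPM in KO. KCNJ16, a potassium channel gene 7130 bases from LINC01028, had means of 4.35 and 4.93 CPM in WT and 0.0317 and 0 in KO. ATXN3L, next to LINC01203, went from 1.44 to 0 CPM in untreated cells. Pairs that went apart include LINC00942, lower in untreated KO by 4.88 on the log2 scale beside a higher ERC1, and LINC01087, at least 41.9-fold higher beside a lower CCDC74A. LINC00942 and LINC01087 also reached the threshold through a single genotype.

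LINC00523, the last member inside the threshold, lies 54148 bases from DLK1, the imprinted membrane protein gene. DLK1 had a mean in WT of 875 CPM without and 1240 with butyrate, and in KO of 52.8 without and 616 with it, where its log2 rise of 3.54 passed (edgeR adjusted p 0.0126). LINC00523 lay in WT at 0, 0.325 and 0.437 CPM without and 0.0518, 1.28 and 1.37 with butyrate, and in KO at 0, 0 and 0.234 without and 0.184, 4.66 and 2.74 with it, and did not pass in any comparison. In both treated groups replicate 1 was the low one.

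Of a list of 12 LINC genes known to encode small proteins, 2 were members. The match was by LINC symbol, so that a gene carried under a later name could not be a member. The count therefore says nothing on the levels of the others. The list does not hold LINC00634 (SMIM45), the member now annotated as protein-coding. LINC00467, the source of a small mitochondrial protein, lay between 4.33 and 19.9 CPM over all libraries and did not pass in any of the 4 comparisons. LINC01003 lay at 41.2, 36.4 and 33.9 CPM in untreated WT and 20.8, 17.3 and 21.3 CPM in untreated KO, and was lower in KO by 0.91 without (SE 0.22, edgeR adjusted p 0.0115) and 0.75 with butyrate (SE 0.22, adjusted p 0.0337), beside the shift of its chromosome 7. As a comparison, 44 of 50 listed lncRNAs with names of their own, such as MALAT1, NEAT1 and the SNHG host genes, were tested. Of these 3 changed with butyrate in WT (6.82%), 2 in KO (4.55%), and 11 differed between genotypes without and 11 with butyrate (25.0% each). Of the 121 LINC genes that were tested but lay under 1 CPM on average, 0 changed with butyrate in edgeR (9 in WT and 14 in KO at an unadjusted p under 0.05), and 33 and 29 differed between genotypes (27.3% and 24.0%).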

How the data were processed

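The authors deposited a single count table, raw and in whole numbers, with gene symbols as rows and 12 libraries as columns. The sample titles gave each library's group and replicate number. Per the submitters' processing notes, reads were checked with FastQC 0.12.1 and aligned with STAR 2.7.11b, and the build was hg38. The counting tool, the annotation and the use of strand are not given in the sources used here. Of the columns 0 were unused, and 0 lines named no gene.

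The deposited counts were fitted without further change by edgeR 4.0.16 under R 4.3.3: filterByExpr with its minimum count of 10 (15805 genes), TMM scaling, a quasi-likelihood model of 4 group means over all 12 libraries (biological coefficient of variation 0.384), and 5 contrasts, each adjusted by Benjamini-Hochberg over all genes tested. A call is an adjusted p under 0.05. SE is the size of the log2 change divided by the square root of F. A fold against a group whose libraries all held 3 counts or fewer was computed against 3 counts in each library and is a lower bound. Because the rule uses the interaction of LINC01234, no p of its own is given, although it is included in the counts of members called. The fits were tested on simulated counts.

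Libraries with the same replicate number deviated together from their group means. The correlations of these deviations over genes were 0.195 to 0.409 (butyrate in WT), 0.147 to 0.468 (butyrate in KO), 0.21 to 0.361 (genotype, untreated) and 0.315 to 0.595 (genotype, treated), against at most 0.186, 0.123, 0.0692 and 0.343 for different numbers. The pairing is thus read from the data, and a fit with the replicate block was an alternative, beside DESeq2 1.42.0, library size scaling, other filters, other thresholds of membership and leaving out libraries.

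Positions, neighbours and promoters came from RefSeq GRCh38.p14, and transcript types, exon lengths and shared sequence from GENCODE 29. Named are LINC01234, the 10 members of highest mean CPM, the 5 largest rises and falls of each contrast among called members without overlap between groups, the 3 smallest p of the interaction, and the members at the threshold. LINC01366 and the members named by chromosome or by their neighbour were chosen after their values were seen. 1 marker of the K562 list is not reported here. The members and lists were chosen with earlier results of these data known.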

Additional observations from a re-analysis of the deposited data

Results flagged for a closer look

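LINC00528 showed opposite directions in the 2 genotypes. Every treated WT library lay below every untreated WT library (7.26, 7.38 and 5.51 CPM without and 5.50, 3.59 and 3.27 CPM with butyrate), while every treated KO library, at 3, 4 and 4 counts, lay above the untreated KO libraries at 0 counts. The difference between the 2 changes was 5.47 on the log2 scale (edgeR adjusted p 0.185), which did not pass, and its size depends on the prior count because KO lay at the detection limit.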

How the results depend on the processing

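For the number of members changed by butyrate in WT, 4 as reported, DESeq2 gave 18 (8.65%, against 7.76% of all genes), the replicate block 10 (4.81% against 8.61%), the fit without the 4 libraries numbered 1 19 (9.13% against 11.4%), membership at 1 CPM in all 4 groups 2, and the fits that left out 1 library 1 to 12. For butyrate in KO, 8 as reported, the same settings gave 21 (10.1% against 8.60%), 22 (10.6% against 11.7%), 20 (9.62% against 13.1%), 2 and 1 to 9. A filter of 10 counts in every library, which leaves 120 members, gave 3 (2.50% against 2.60%). For KO against WT that filter gave 27 in untreated (22.5%, against 19.9% of all genes) and 29 in treated cells (24.2% against 16.6%). Membership at 1 CPM in all 4 groups gave 23 in each. DESeq2 gave 77 in each (37.0%, against 24.9% and 21.6%). The replicate block gave 87 and 80 (41.8% and 38.5%, against 33.0% and 29.2%). Without the 4 libraries numbered 1 the counts were 76 and 70 (36.5% and 33.7%, against 26.2% and 24.7%). The fits that left out 1 library gave 56 to 65 in untreated cells, where 15.1% to 17.4% of all genes passed. In treated cells they gave 43 to 64, where 12.3% to 21.4% passed. For the interaction, with 0 as reported, DESeq2, no filter, the filter of 10 counts in every library and the replicate block each gave 1, and the fits that left out 1 library 0 to 1. That member was LINC01234 each time, which was chosen for this interaction, so the count restates the choice. Scaling by library size alone moved the median of all genes to 0.121 for butyrate in KO and left all counts of members within 1.5 times. Of 641 recomputed values of 57 single results, 571 kept direction and side of the threshold. The other 70 kept the direction but missed the threshold, 62 of these with 1 library left out, and none reversed. All 57 were calls of named members, many of them named for a large called change in these data, and they include LINC01234. Several compare with a group at or near 0 counts, where a reversal could hardly occur. These counts are therefore description and no measure of robustness. The replicate block ended no call of a named member. The libraries give no statement on levels below about 3 counts, so that absence of the 12 members read in one genotype means absence at this depth.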
